A study of Mus musculus with 6 samples.

Results

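The Prss genes of the mouse encode secreted and membrane-anchored proteases with the trypsin fold. They were taken as the rows of the deposited table whose symbol is Prss, a number and at most 1 letter; 39 of the 53700 genes listed met this rule. RNA had been sequenced from primary spermatocytes of C57BL/6 mice aged 8 weeks, sorted from testis cell suspensions by flow cytometry after Hoechst staining. There were 3 libraries of circSry KO mice, which lack the circular RNA made from Sry, and 3 libraries of wild-type (WT) mice. By the labels the groups are alike in strain, age and cell type. How the knockout was made, and whether a library stands for 1 animal, is not stated in them. The p-values below therefore reflect the spread among 6 samples, which may be technical.

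Proteases with the trypsin fold cut peptide bonds with a catalytic serine that works together with a histidine and an aspartate, and most are made as inactive precursors. In the mouse testis many members of the family are made in meiotic and haploid germ cells, and several end up in the acrosome, the secretory vesicle of the sperm head, or on the sperm membrane through a glycolipid anchor. Some family members have lost the catalytic residues and still act in male fertility. Others belong to the pancreas, skin, uterus, brain or blood cells.

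Depth was 8191397 to 9294723 estimated counts per library in circSry KO and 7400360 to 8422943 in WT. Sry had a count of 0 in all 6 libraries. Counts per gene say nothing of its circular form, and the loss of circSry was not checked here. circSry KO replicate 3 stood apart in log2(CPM + 1) across genes (CPM is the count scaled to the library's total). It correlated at 0.896 and 0.807 with circSry KO replicates 1 and 2, which correlated with each other at 0.954. With WT replicates 1, 2 and 3 it correlated at 0.945, 0.874 and 0.900. Its short transcripts were also high. Genes in the shortest 20% by effective length lay at a median log2 of 1.21 against the WT mean in that library, 0.65 in circSry KO replicate 1 and 0.09 in circSry KO replicate 2, against -0.23 to 0.31 in the WT libraries. Results are therefore also given without circSry KO replicate 3 and with offsets that remove each library's trend on transcript length.

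The marker genes of the labelled cell type were present in all libraries. Of the 15 pachytene and diplotene spermatocyte markers 15 had counts, with summed levels of 8904 to 8974 TPM (a share of transcripts, scaled for length and library) in circSry KO and 11935 to 13521 TPM in WT. The sum hides a split: 6 of the 15 had a positive and 9 a negative log2 fold change, circSry KO over WT. The 20 round spermatid markers summed to 2786 to 6150 TPM in circSry KO and 1865 to 2772 TPM in WT, and the 16 elongating spermatid markers to 20178 to 57067 TPM in circSry KO and 11032 to 15872 TPM in WT; no marker of either list was at 0. In bulk RNA fewer cells of a type and less RNA per cell cannot be told apart. The part of these shifts in the results on Prss genes was not tested.

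The label of testis proteases covered less than the whole family. Of the 39 members 24 had enough counts to be tested and 15 did not; 8 of those 15 had a count of 0 in every library. The 8 were the pancreatic trypsins Prss1 and Prss3, the tryptase relatives Prss22, Prss27 and Prss30, the implantation proteases Prss28 and Prss29 of the uterine glands, and Prss34, a protease of mast cells and basophils. With a count of 0, a level of at most 0.323 to 0.366 CPM is allowed in the circSry KO libraries and of 0.356 to 0.405 CPM in the WT libraries (3 counts; counting error only). The other 7 were Prss2, Prss8 (prostasin), Prss12 (neurotrypsin), Prss16 (a thymus protease), Prss32, Prss33 and Prss53, with at most 15 counts in any library. The 16 members set down as genes of testis and sperm, among them Prss55 and Prss21, were all among the 24 tested. The remaining 8 tested were Prss57 (a protease of neutrophil granules), Prss23, Prss35, Prss36 and Prss56, known from other tissues, and Prss38, Prss47 and Prss48, which were put in no group.

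The expected counts of all 39 members were whole numbers within 0.005 in every library, while 10.2% of the 31233 genes with a count had at least 1 value that was not whole, as arises when reads are divided among genes. By the GENCODE M21 annotation (GRCm38) some members share exonic bases with genes on the opposite strand. Whether counting separated the strands is not stated in the labels. Prss57 shared 1157 bases with Fstl3, Prss23 864 with Prss23os, Prss40 289 with Cfc1, Prss38 163 with Gm15755 and Prss41 59 with Prss32. On the same strand Prss53, which was not tested, shared 1636 bases with Gm21974. The values of these members may include reads of the partner.

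The levels of the tested members spanned more than 2 orders of magnitude per length. Prss39, an acrosomal protease also called TESP1, was the highest, at 453, 455 and 221 TPM in circSry KO and 260, 172 and 305 TPM in WT. The next was Prss21 (testisin), an enzyme anchored to the sperm membrane by glycolipid, at 182, 151 and 191 TPM in circSry KO and 136, 92.1 and 127 TPM in WT. Below them in mean level over the 6 libraries came Prss46, Prss54, Prss50, Prss45, Prss42 and Prss37, with overall means between 57.8 and 122 TPM. The order among neighbours in this list is not fixed: in WT the means of Prss46, Prss54, Prss50, Prss45 and Prss42 were 72.9 ± 19.7, 61.5 ± 14.3, 92.1 ± 19.5, 82.0 ± 15.9 and 74.5 ± 12.2 TPM (SD, n = 3), closer than their spread. The lowest of the 24 was Prss57, at 1.98 ± 0.814 TPM in circSry KO and 1.39 ± 0.217 TPM in WT (SD, n = 3 each).

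**Figure D1:**
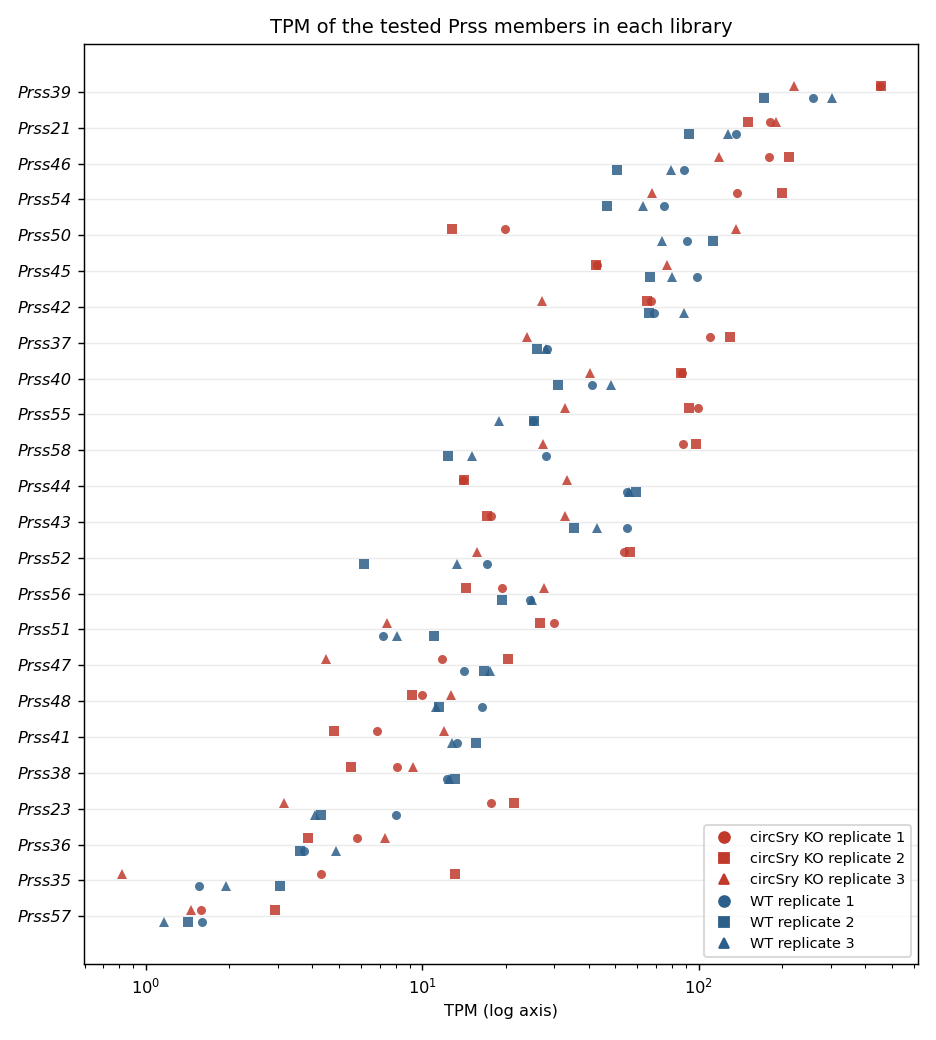
TPM of the 24 tested Prss members in each library, on a log axis; red points are circSry KO libraries and blue points WT libraries, with a symbol for each replicate, and members are ordered by mean TPM. Prss39 stands at the top and Prss57 at the bottom, and in many rows circSry KO replicate 3 (red triangle) lies among the WT points, apart from the other red points.

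Summed over the family, Prss genes took 0.147%, 0.124% and 0.128% of all counts in the circSry KO libraries and 0.101%, 0.0655% and 0.0842% in the WT libraries. The groups did not overlap on this scale. In TPM they did: the sums were 1671, 1759 and 1132 TPM in circSry KO and 1174, 904 and 1141 TPM in WT. On the TPM scale circSry KO replicate 3 lay inside the WT range and circSry KO replicates 1 and 2 above it.

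The question of the comparison is which of these proteases differ between spermatocytes with and without circSry. In a fit over 16829 genes, 0 of the 24 members passed an adjusted p of 0.05 (edgeR quasi-likelihood, Benjamini-Hochberg over all genes; 0% of all genes passed). At an unadjusted p below 0.05, edgeR gave 11 members higher and 0 lower, beside 13.6% of all genes higher and 9.84% lower (23.4% in either direction). DESeq2 called 8 members higher and 0 lower after adjustment, beside 6.9% of all genes higher and 4.65% lower (11.5% in either direction). With no filter on low counts edgeR called 6 of the 31 members with a count higher and 0 lower, beside 1.75% of all genes higher and 1.03% lower (2.78% in either direction). In CPM the 3 circSry KO libraries all lay above the 3 WT libraries for 10 members and below them for 0, beside 11.6% and 16.9% of all genes. In 9 of these 10, circSry KO replicate 3 was the lowest circSry KO library. The median log2 fold change of the 24 members was 0.92, against 0.12 over all genes, or 0.63 and 0.04 with the length offsets.

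In TPM, 3 members (Prss55, Prss46 and Prss21) had all circSry KO libraries above all WT libraries, and 4 members (Prss44, Prss43, Prss41 and Prss38) had them all below, beside 5.81% and 21.7% of all genes. On that scale limma on log2(TPM + 1) called 0 members at an adjusted p of 0.05, beside 0.0225% of all genes higher and 0.0113% lower (0.0338% in either direction), and the median log2 fold change over all genes was itself -0.25. On log2(TPM + 0.1) it also called 0 members, beside 0.0225% of all genes higher and 0.0169% lower (0.0394% in either direction). On log2(TPM + 1), circSry KO replicate 3 was nearer to the WT mean than to the mean of the other circSry KO libraries for 19 of the 24 members. The share over all genes was not computed, so this count describes that library and is no result about the family.

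Without circSry KO replicate 3, edgeR called 11 members higher and 4 lower, beside 18.5% of all genes higher and 16.2% lower (34.7% in either direction). The 11 were Prss55, Prss46, Prss58, Prss37, Prss51, Prss52, Prss54, Prss40, Prss39, Prss23 and Prss35, and the 4 were Prss44, Prss43, Prss41 and Prss50. These p-values are too small, since the library left out is the one that differed: the coefficient of variation between replicates was 0.289 in that fit and 0.453 with all 6 libraries. In CPM without that library the groups did not overlap for 13 members higher and 6 lower, beside 30.9% and 27.8% of all genes.

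Prss55 had the smallest p of the family. It encodes a sperm protease that male mice need for normal fertility and for maturation of the sperm protein ADAM3. The gene lies on the minus strand of chromosome 14 from 64075438 to 64090162 (GRCm38). It stood at 69.0, 51.9 and 29.0 CPM in circSry KO and at 15.3, 12.8 and 9.85 CPM in WT. The groups did not overlap, and circSry KO replicate 3 was the lowest of its group. The log2 fold change was 2.02 ± 0.38 (SE; edgeR adjusted p = 0.087). With the length offsets the log2 fold change was 1.63. The adjusted p was 0.000134 in DESeq2 and lay between that value and 0.418 over the 15 alternatives.

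Next to it on the plus strand lie Prss51, from 64086234 to 64097678, and Prss52, also called TESP3, from 64104286 to 64113755. The annotated bodies of Prss55 and Prss51 overlap, but the genes share no exonic base. Prss52 stood at 38.7, 33.1 and 14.5 CPM in circSry KO and at 10.8, 3.23 and 7.24 CPM in WT, a log2 fold change of 2.03 ± 0.53 (SE; edgeR adjusted p = 0.0961). Prss51 was lower in level, at 17.8, 11.5 and 5.59 CPM in circSry KO and 3.51, 2.98 and 2.61 CPM in WT, a log2 fold change of 1.96 ± 0.47 (SE; edgeR adjusted p = 0.0925). In both genes the groups did not overlap in CPM, and circSry KO replicates 1, 2 and 3 kept the same CPM order as in Prss55. In TPM the groups overlapped for both, with circSry KO replicate 3 inside the WT range. It stood at 15.83 TPM for Prss52 against 6.13 to 17.15 TPM, and at 7.46 TPM for Prss51 against 7.23 to 11.05 TPM. With the length offsets the log2 fold changes were 1.739 for Prss52 and 1.435 for Prss51. Within a library, the ratio of Prss55 to Prss52 in TPM was 1.86, 1.63 and 2.08 in circSry KO and 1.47, 4.13 and 1.42 in WT, with groups that overlapped.

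On chromosome 6, Prss37 and Prss58 showed the same layout. Prss37 is a protease relative without enzymatic activity that is needed for male fertility in mice and, like Prss55, for the ADAM3 protein of mature sperm. It lies on the minus strand from 40514824 to 40519508. It stood at 78.3, 74.7 and 21.6 CPM in circSry KO and at 17.4, 13.4 and 15.0 CPM in WT. circSry KO replicate 3 lay just above the WT libraries and far below its own group. The log2 fold change was 1.94 ± 0.46 (SE; edgeR adjusted p = 0.0917), and 1.62 with the length offsets. Prss58, on the same strand from 40895270 to 40900387, had the largest fold change of the family. Its values were 57.0, 51.4 and 22.5 CPM in circSry KO and 15.8, 5.84 and 7.36 CPM in WT, a log2 fold change of 2.19 ± 0.51 (SE; edgeR adjusted p = 0.0897). In TPM circSry KO replicate 3 fell inside the WT range for Prss58, at 27.3 TPM against 12.4 to 28.0 TPM, and below it for Prss37, at 24.0 TPM against 25.95 to 28.2 TPM.

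Prss54, on the minus strand of chromosome 8 from 95559069 to 95576340, encodes a sperm member thought to lack enzymatic activity. It stood at 137, 141 and 93.6 CPM in circSry KO and at 69.7, 34.6 and 43.9 CPM in WT. The groups did not overlap in CPM, and the log2 fold change was 1.37 ± 0.36 (SE, edgeR adjusted p = 0.0965), or 1.22 with the length offsets. In TPM the groups overlapped, with circSry KO replicate 3 at 67.9 TPM against 46.56 to 74.98 TPM in WT.

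**Figure D2:**
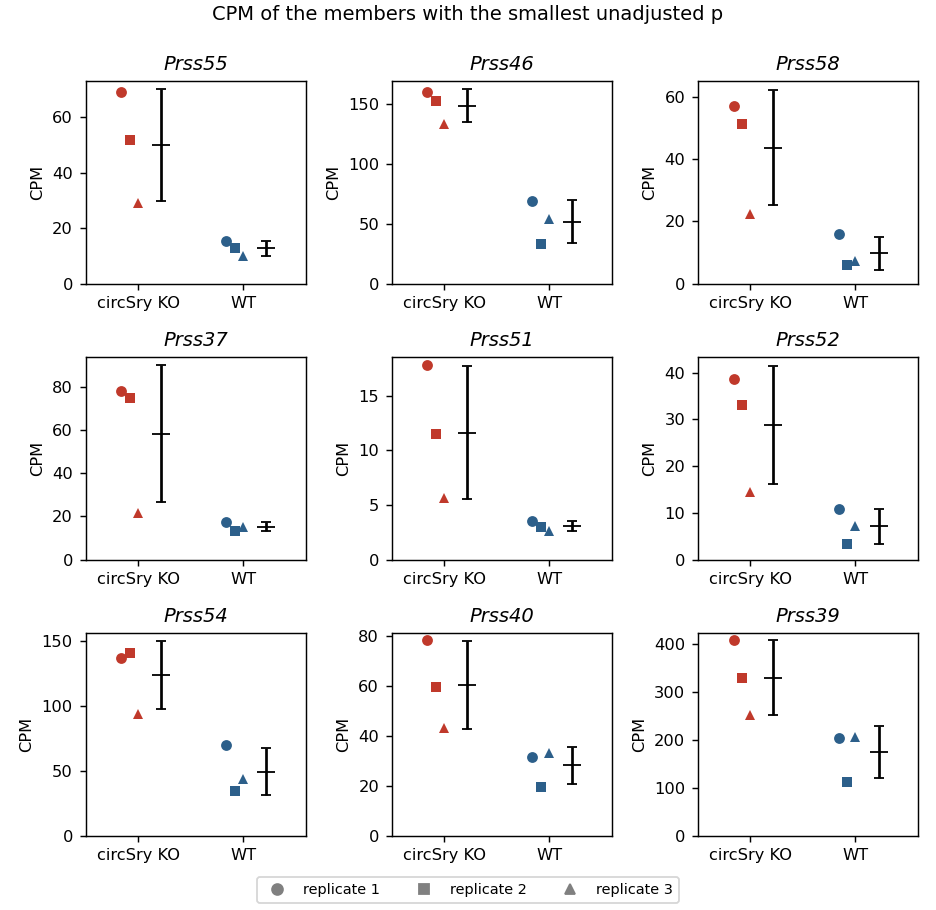
CPM of the 9 members with the smallest unadjusted p in edgeR, by library; points are libraries (circle, square and triangle for replicates 1, 2 and 3), red for circSry KO and blue for WT, and the black bar beside them is the mean with its SD. In each panel the red points lie above the blue ones and the red triangle is the lowest red point, for example 29.0 CPM for Prss55 and 252 CPM for Prss39.

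The acrosomal proteases Prss39 (TESP1) and Prss40 (TESP2) are neighbours on chromosome 1, Prss39 on the plus strand from 34498410 to 34503063 and Prss40 on the minus strand from 34543968 to 34560943. Both are stored in the acrosome of mouse sperm. Prss39 stood at 408, 329 and 252 CPM in circSry KO and at 204, 112 and 206 CPM in WT, a log2 fold change of 0.97 ± 0.35 (SE; edgeR adjusted p = 0.158). Prss40 stood at 78.4, 59.7 and 43.4 CPM in circSry KO and at 31.8, 19.5 and 33.2 CPM in WT, a log2 fold change of 1.15 ± 0.36 (SE; edgeR adjusted p = 0.121). The groups did not overlap in CPM for either gene and overlapped in TPM for both. The pair kept close proportions in every library: the ratio of Prss39 to Prss40 in TPM was 5.19, 5.28 and 5.45 in circSry KO and 6.31, 5.54 and 6.35 in WT. The ratio was lower in all circSry KO libraries, by 0.19 on the log2 scale (difference -0.19; two-sided exact permutation p = 0.1, adjusted p = 0.16 over 8 ratios). An exact test of 3 against 3 cannot give less than 0.1.

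Prss21 (chromosome 17, plus strand, 23868056 to 23873114) did not follow this layout. It stood at 137, 92.3 and 187 CPM in circSry KO and at 97.3, 56.3 and 76.8 CPM in WT. Here circSry KO replicate 3 was the highest library and circSry KO replicate 2 lay below WT replicate 1, so the groups overlapped in CPM, though not in TPM. The log2 fold change was 0.96 ± 0.42 (SE; edgeR adjusted p = 0.214), 0.53 with the length offsets and 0.50 without circSry KO replicate 3.

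Neighbouring members had unlike values on chromosome 9, where 6 stand side by side on the plus strand within 66.5 kb, from 110798166 to 110864629 (GRCm38). In genomic order they are Prss42, Prss44, Prss43, Prss45, Prss46 and Prss50. Prss42 and Prss43 encode membrane-anchored proteases of spermatocytes that have been tied to meiosis in mouse testis culture. Prss50, also called TSP50, has a threonine in place of the catalytic serine. The 6 genes together reached 342, 364 and 425 TPM in circSry KO and 456, 391 and 421 TPM in WT, with groups that overlapped.

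Of the 6, 4 have a promoter window of 300 bases in RefSeq (GRCm38.p6), from 250 bases before the annotated start to 50 after it. They are shown because neighbours with unlike values in these libraries sit next to each other. All are on the plus strand of chromosome 9 and are written 5′ to 3′: Prss42 chr9:110797935-110798234, Prss45 chr9:110834338-110834637, Prss46 chr9:110844256-110844555 and Prss50 chr9:110857714-110858013. Capitals mark the 1 motif match found.
Prss46: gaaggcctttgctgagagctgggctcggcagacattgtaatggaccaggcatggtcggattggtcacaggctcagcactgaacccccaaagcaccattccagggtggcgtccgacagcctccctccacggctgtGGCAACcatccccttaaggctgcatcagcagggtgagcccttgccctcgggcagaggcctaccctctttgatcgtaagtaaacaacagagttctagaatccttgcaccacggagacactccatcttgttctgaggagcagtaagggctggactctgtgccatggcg
Prss45: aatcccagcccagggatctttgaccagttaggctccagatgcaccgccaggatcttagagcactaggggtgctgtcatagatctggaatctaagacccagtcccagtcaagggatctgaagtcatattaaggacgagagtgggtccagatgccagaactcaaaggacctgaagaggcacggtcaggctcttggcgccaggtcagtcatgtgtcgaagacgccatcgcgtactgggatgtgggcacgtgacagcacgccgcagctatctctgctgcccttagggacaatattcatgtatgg
Prss50: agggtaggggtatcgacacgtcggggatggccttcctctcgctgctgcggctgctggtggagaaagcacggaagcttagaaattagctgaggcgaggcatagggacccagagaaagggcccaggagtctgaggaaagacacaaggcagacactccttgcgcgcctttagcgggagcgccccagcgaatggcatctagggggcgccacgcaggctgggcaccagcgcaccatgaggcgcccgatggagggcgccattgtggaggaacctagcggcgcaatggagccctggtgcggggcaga
Prss42: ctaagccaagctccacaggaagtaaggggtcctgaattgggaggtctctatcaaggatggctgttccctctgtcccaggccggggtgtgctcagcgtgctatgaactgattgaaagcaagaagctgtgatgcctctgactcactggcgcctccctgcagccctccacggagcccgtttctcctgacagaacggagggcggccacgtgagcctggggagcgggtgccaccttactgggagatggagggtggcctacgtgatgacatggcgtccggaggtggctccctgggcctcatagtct

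Next, 3 short motifs of testis transcription factors were searched in these windows on both strands: TGACGT (the core of the cAMP response element), AACNGTT (a core bound by MYB factors) and GTTGCC (an element bound by RFX factors); the last pair of motifs can overlap by GTT. Prss46 holds GGCAAC, the reverse complement of GTTGCC, starting 116 bases before the start. The windows of Prss42, Prss45 and Prss50 hold none of the 3 motifs. Among all 32851 RefSeq windows 7.51% hold TGACGT, 4.45% AACNGTT and 12.5% GTTGCC. Of the 29 members with a window, 2, 4 and 3 hold them. A match is a description of the letters only.

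Prss46 was the only 1 of the 6 whose groups did not overlap in CPM. It stood at 160, 152 and 133 CPM in circSry KO and at 68.6, 33.1 and 53.5 CPM in WT. The 3 circSry KO libraries were close to each other, which set Prss46 apart from the members above. The log2 fold change was 1.58 ± 0.36 (SE; edgeR adjusted p = 0.0891). It was 1.33 with the length offsets and 1.51 without circSry KO replicate 3. As for Prss55, the groups did not overlap in TPM either, at 180, 212 and 119 TPM in circSry KO and 88.3, 50.8 and 79.7 TPM in WT.

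Its neighbours lay on the other side or near 0. Prss44 stood at 19.5, 14.4 and 58.5 CPM in circSry KO and at 63.8, 53.6 and 53.1 CPM in WT, a log2 fold change of -0.71 ± 0.59 (SE; edgeR adjusted p = 0.49). Prss43 stood at 32.5, 25.1 and 75.5 CPM in circSry KO and at 87.4, 47.6 and 59.7 CPM in WT, a log2 fold change of -0.41 ± 0.53 (SE; edgeR adjusted p = 0.675). In both genes circSry KO replicates 1 and 2 lay below all WT libraries and circSry KO replicate 3 lay among them in CPM. In TPM all circSry KO libraries lay below all WT libraries for both genes, as they did for 21.7% of all genes.

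Prss50 had the largest standard error of the 24 members. It stood at 21.3, 11.0 and 114 CPM in circSry KO and at 84.1, 87.5 and 59.2 CPM in WT. circSry KO replicates 1 and 2 were the lowest of the 6 libraries and circSry KO replicate 3 the highest. The log2 fold change of -0.44 ± 0.82 (SE; edgeR adjusted p = 0.775) was within the spread between replicates. Prss45 stood at 37.3, 29.7 and 83.7 CPM in circSry KO and at 74.9, 42.5 and 52.7 CPM in WT, again with circSry KO replicates 1 and 2 lowest and circSry KO replicate 3 highest, and a log2 fold change of -0.04 ± 0.52 (SE; edgeR adjusted p = 0.975). Prss42 stood at 79.4, 61.7 and 40.3 CPM in circSry KO and at 70.9, 56.8 and 79.0 CPM in WT, a log2 fold change of -0.14 ± 0.33 (SE; edgeR adjusted p = 0.819). Here circSry KO replicate 3 was the lowest library.

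Without circSry KO replicate 3 the log2 fold changes were -1.82 for Prss44, -1.25 for Prss43 and -2.31 for Prss50, with edgeR adjusted p of 0.00194, 0.0181 and 0.00138 that are too small for the reason given. Over all alternatives the adjusted p ranged from 0.00194 to 0.8 for Prss44, from 0.0181 to 0.971 for Prss43 and from 0.00138 to 0.986 for Prss50. In the same fit Prss42 had -0.04 and Prss45 -0.84, neither of which passed.

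Ratios between neighbours within a library need no scaling to depth, but the genes differ in effective length, at 1018 bases for Prss46, 993 for Prss45, 1348 for Prss42, 1493 for Prss44 and 2091 for Prss43. With the length offsets the log2 fold changes were 1.33 for Prss46, -0.42 for Prss45, -0.24 for Prss42, -0.82 for Prss44 and -0.28 for Prss43. The following were chosen after the values had been seen. The ratio of Prss46 to Prss44 in TPM was 12.8, 15.0 and 3.56 in circSry KO and 1.604, 0.857 and 1.43 in WT, a difference of 2.82 on the log2 scale. The ratio of Prss46 to Prss43 was 10.1, 12.3 and 3.63 in circSry KO and 1.61, 1.43 and 1.86 in WT. The ratio of Prss46 to Prss45 was 4.19, 5.02 and 1.55 in circSry KO and 0.894, 0.759 and 0.991 in WT, and that of Prss46 to Prss42 2.66, 3.26 and 4.39 in circSry KO and 1.28, 0.770 and 0.901 in WT. In these 4 ratios all circSry KO libraries lay above all WT libraries, circSry KO replicate 3 included (two-sided exact permutation p = 0.1 for each, the smallest possible, adjusted p = 0.16 over 8 ratios). All 4 share Prss46, whose groups alone did not overlap in TPM, so they are not separate results. For Prss44 and Prss43, with all circSry KO libraries below all WT libraries in TPM, the outcome was fixed beforehand. These p-values therefore add no support. The ratio of Prss46 to Prss50 overlapped, at 9.01, 16.5 and 0.873 in circSry KO and 0.976, 0.452 and 1.08 in WT (exact permutation p = 0.3).

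**Figure D3:**
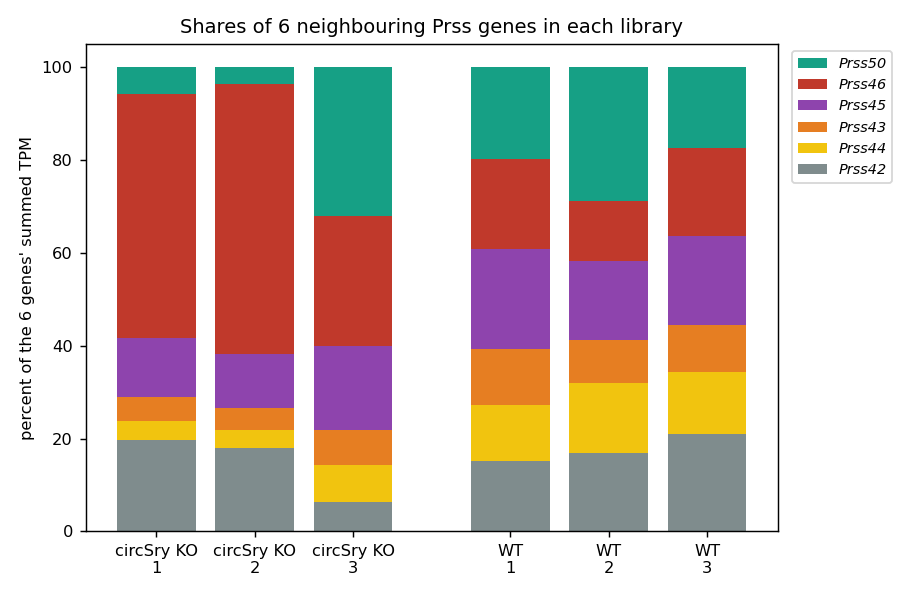
Share of each of the 6 neighbouring genes of chromosome 9 in their summed TPM, in percent, for each library; colours stand for genes, stacked in genomic order from the bottom, with circSry KO libraries on the left and WT libraries on the right. Prss46 (red) takes 52.6%, 58.3% and 28.0% in circSry KO and 19.3%, 13.0% and 18.9% in WT, and Prss50 (green) takes 5.84%, 3.52% and 32.1% in circSry KO.

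Prss41, a membrane-anchored protease of spermatogonia and spermatocytes, lies near Prss21 on chromosome 17, on the minus strand from 23836785 to 23844172. It stood at 5.66, 3.17 and 11.7 CPM in circSry KO and at 10.3, 9.94 and 9.02 CPM in WT, with circSry KO replicate 3 highest and circSry KO replicates 1 and 2 lowest. The log2 fold change was -0.35 ± 0.56 (SE; edgeR adjusted p = 0.729), and -1.20 without circSry KO replicate 3. Prss47 stood at 10.6, 11.8 and 5.06 CPM in circSry KO and at 9.9996, 10.4 and 12.7 CPM in WT, a log2 fold change of -0.23 ± 0.38 (SE; edgeR adjusted p = 0.745). Prss38 and Prss48 had -0.17 ± 0.48 and 0.23 ± 0.50 (SE), both within the spread between replicates; the value of Prss48 turned negative on both TPM scales and with the length offsets.

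The tested members known from other tissues had 4 positive fold changes of 4, apart from Prss57, where 55.3% of all genes had a positive one. Prss23, a secreted protease of many tissues, stood at 16.3, 15.9 and 3.12 CPM in circSry KO and at 5.13, 2.73 and 4.39 CPM in WT (log2 fold change 1.52 ± 0.60 SE, edgeR adjusted p = 0.178). Prss35, a secreted protease relative known from the ovary, stood at 12.0, 29.3 and 2.90 CPM in circSry KO and at 3.78, 6.09 and 4.16 CPM in WT (1.65 ± 0.68 SE, edgeR adjusted p = 0.194). For both genes the level lay in circSry KO replicates 1 and 2, and circSry KO replicate 3 was within or below the WT range. The summed level of 9 stromal, endothelial and peritubular markers was also high in circSry KO replicates 1 and 2 and low in circSry KO replicate 3, though 6 of the 9 had a positive and 3 a negative fold change. The sum was 286, 362 and 9.93 TPM in circSry KO and 38.4, 81.8 and 55.4 TPM in WT. The 12 macrophage and leukocyte markers, of which 9 were tested, had a summed level of 571, 410 and 25.95 TPM in circSry KO and 42.8, 38.8 and 32.6 TPM in WT. Their part in the levels of Prss23 and Prss35 was not tested. Without circSry KO replicate 2 the log2 fold change of Prss35 was 0.74.

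Prss36, a protease with several catalytic domains in 1 chain, stood at 4.07, 3.66 and 4.52 CPM in circSry KO and at 2.57, 1.99 and 2.49 CPM in WT (0.88 ± 0.43 SE; edgeR adjusted p = 0.255). Its groups did not overlap in CPM and did in TPM. Prss56, known from eye growth, overlapped between groups and turned sign on the TPM scales, with 37.3 ± 20.3 CPM in circSry KO and 30.9 ± 6.22 CPM in WT (SD, n = 3 each). Prss57 of neutrophil granules stood at 3.39, 5.01 and 2.47 CPM in circSry KO and at 2.97, 2.24 and 1.90 CPM in WT, with a log2 fold change of 0.65 ± 0.46 (SE).

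**Figure D4:**
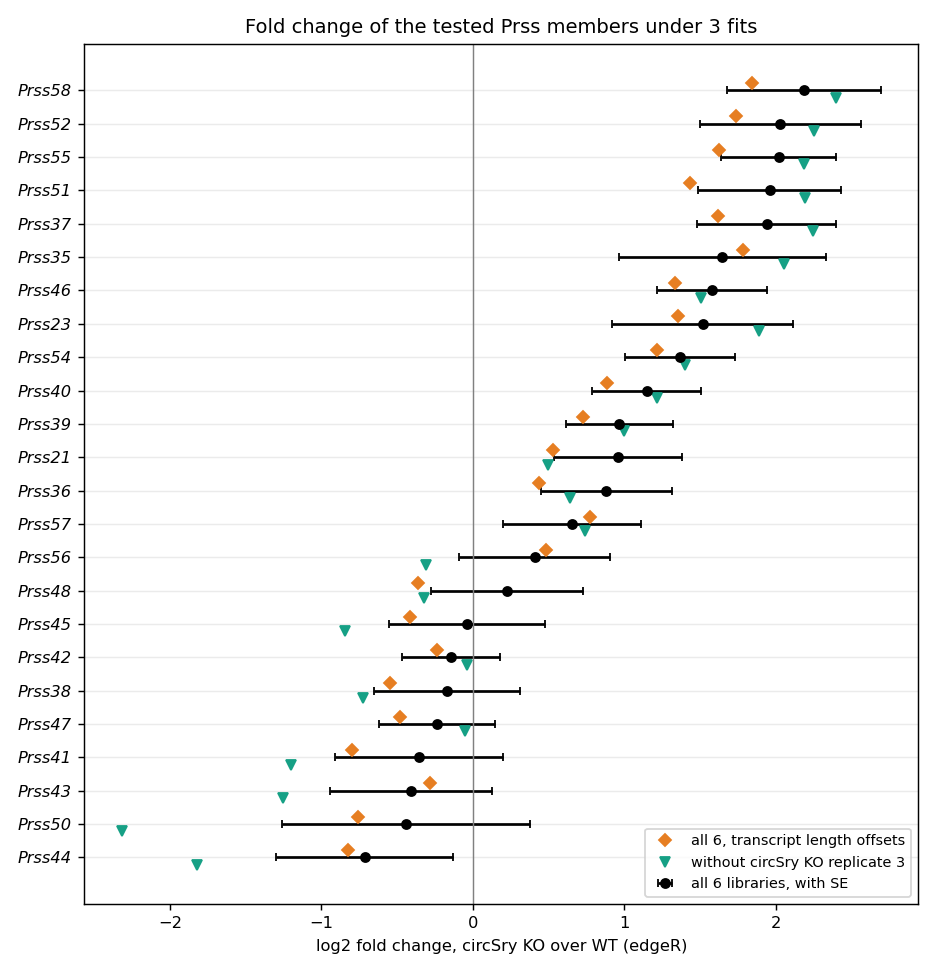
Log2 fold change of the 24 tested members, circSry KO over WT, from 3 edgeR fits: all 6 libraries (black points with SE), all 6 with transcript length offsets (orange diamonds) and without circSry KO replicate 3 (green triangles). Prss58, Prss55 and Prss37 stay above 0 in the 3 fits, with 2.19 for Prss58 in the fit to all libraries, while Prss50 and Prss44 reach -2.31 and -1.82 without circSry KO replicate 3.

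The transcripts of the family are short. The tested members had a median effective length of 1005 bases against 1866 over all tested genes, and 20 of the 24 were shorter than that value. With the length offsets 23 of the 24 members kept the sign of their fold change, Prss48 being the exception at -0.36, and 0 passed the threshold.

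By role, of the 16 genes of testis and sperm, 10 had a positive and 6 a negative fold change, where 55.3% of all genes had a positive one, and their median log2 fold change was 1.06 against 0.12 over all genes. In edgeR 9 of the 16 had a higher and 0 a lower value with an unadjusted p below 0.05, beside 13.6% and 9.84% of all genes. DESeq2 called 8 of the 16 higher and 0 lower, beside 6.9% and 4.65% of all genes. Without circSry KO replicate 3 edgeR called 9 of the 16 higher and 4 lower, beside 18.5% and 16.2% of all genes. Of the 20 round spermatid markers 20 had positive fold changes, with a median of 1.335. In edgeR 19 of these markers were higher and 0 lower at an unadjusted p under 0.05, and 0 passed after adjustment. DESeq2 called 14 of them higher. Of the 16 elongating spermatid markers 16 had positive fold changes, with a median of 2.096. In edgeR 14 of the 16 were higher and 0 lower at an unadjusted p under 0.05, and 0 passed after adjustment. DESeq2 called 13 of these higher. Of the 15 tested genes tied to maturation of ADAM3 and passage of sperm into the oviduct, a process that also involves Prss37 and Prss55, 12 had a positive and 3 a negative fold change, with a median of 0.70. In edgeR 6 of the 15 were higher and 1 lower at an unadjusted p under 0.05, beside the same 13.6% and 9.84% of all genes, and 0 passed after adjustment. DESeq2 called 2 of the 15 higher and 0 lower, beside 6.9% and 4.65% of all genes, and edgeR without circSry KO replicate 3 called 6 higher and 3 lower, beside 18.5% and 16.2%. Calr3, a chaperone of the endoplasmic reticulum in spermatids, stood at 80.9, 66.4 and 36.8 CPM in circSry KO and at 25.8, 16.2 and 20.1 CPM in WT. Adam6a, a sperm ADAM with a close copy, stood at 64.9, 84.1 and 23.4 CPM in circSry KO and at 20.1, 14.9 and 18.4 CPM in WT. Clgn, the most abundant, had a log2 fold change of -0.01 ± 0.29 (SE).

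Of 6 other trypsin-like proteases tested, 2 had a positive and 4 a negative fold change, with a median of -1.29. Acr, the main acrosomal protease acrosin, stood at 237, 242 and 113 CPM in circSry KO and at 160, 144 and 193 CPM in WT, with a log2 fold change of 0.28 ± 0.33 (SE; edgeR adjusted p = 0.633) and groups that overlapped. The kallikreins Klk1b8 and Klk1b21, which have near-identical relatives, had 2.84 ± 0.42 and -1.87 ± 0.41 (SE, edgeR adjusted p = 0.08698 and 0.08772). Leydig cell markers, 8 of 8 with counts, summed to 617 to 1054 TPM in circSry KO and 1585 to 2221 TPM in WT, and their part in the kallikrein values was not tested. Of the 7 tested acrosome content and inhibitor genes, 6 had a positive and 1 a negative fold change, with a median of 0.68. Acrbp, which binds the precursor of acrosin, stood at 749 ± 139 CPM in circSry KO and 498 ± 142 CPM in WT (SD, n = 3). Eppin and Serpinb6c, both inhibitors, had log2 fold changes of 1.25 ± 0.55 and 1.05 ± 0.48 (SE; edgeR adjusted p = 0.213 and 0.229).

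Markers of the remaining cell types gave these sums. Sertoli markers, 12 of 12 with counts, reached 178 to 446 TPM in circSry KO and 67.8 to 97.2 TPM in WT. Spermatogonia markers, 10 of 10, reached 203 to 283 TPM in circSry KO and 183 to 237 TPM in WT. Mast cell markers had counts for 7 of 9, with Cma1 and Fcer1a at 0. They summed to 4.68 to 30.25 TPM in circSry KO and 11.4 to 31.6 TPM in WT. Only 2 of the 9, Kit and Hdc, had enough counts to be tested, and Kit is also in the spermatogonia list. Kit had a mean of 26.8 CPM in circSry KO and 33.0 CPM in WT, and Hdc 7.90 and 5.25 CPM. Pancreatic acinar markers had counts for 8 of 10, with Cel and Try4 at 0. Their sums were 11.7 to 19.5 TPM in circSry KO and 5.53 to 14.4 TPM in WT.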

How the data were processed

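For each gene the authors deposited expected counts, which carry no normalization, beside TPM and FPKM, both scaled by length and library, per the file headers. Per the submitters' processing notes STAR 2.7.0f, RSEM 1.3.2 and edgeR 3.28.1 were used; GRCm39 and mm9 are the builds listed, without a role. For the counted annotation: not given in the sources used here. Positions come from GENCODE M21 on GRCm38, matched by identifier for all 39 members, a build that may not be that of the counts. FPKM served to derive effective lengths and to check TPM: the members' values agreed within 5%.

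Rounded expected counts entered edgeR 4.0.16 (R 4.3.3; TMM factors, genes kept by filterByExpr, quasi-likelihood F test on genotype, Benjamini-Hochberg over 16829 genes, threshold 0.05). The SE is the log2 fold change over the square root of F. Groups came from the titles. The alternatives were DESeq2 1.42.0, RLE factors, a minimum of 1 CPM in 3 libraries or no minimum, limma 3.58.1 (voom, and on log2 of TPM with a pseudocount of 1 or 0.1 where 3 libraries reached 1 TPM, a scale that understates changes of low genes), length offsets by lowess (span 0.3), a replicate block and each library left out. The scripts were tested on simulated data.

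The members and lists were chosen with earlier results of these data known. Members given in full were Prss55, Prss21, the 8 highest in mean TPM and the 4 smallest p in each direction; others were named after their values were seen. Of each further list the 2 genes with the smallest p and the most abundant were named. Same-numbered libraries of the groups deviated together at correlations of 0.0776, 0.334 and -0.313, so the numbers were not taken to pair them.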

Additional observations from a re-analysis of the deposited data

How the results depend on the processing

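The count of 0 members past the threshold in edgeR was kept with RLE factors, at least 1 CPM in 3 libraries, limma-voom, both TPM scales, length offsets and the replicate block. It was 6 with no filter and 8 with DESeq2, and 0 to 15 over left-out libraries, the 15 being without circSry KO replicate 3. Over all genes the count of 0 became 869 with no filter, 1943 with DESeq2 (1161 higher, 782 lower), 6 and 7 on log2(TPM + 1) and log2(TPM + 0.1), and 0 to 6228 over left-out libraries. The lists of other trypsin-like proteases, acrosome content and inhibitor genes and ADAM3 genes were also counted together, without the cell type markers. In the main fit 6, 7 and 15 of their genes were tested. Their count was 6 with DESeq2 (3 higher, 3 lower), beside 11.5% of all genes. Over left-out libraries it was 0 to 15. The 15 (7 higher, 8 lower) were without circSry KO replicate 3, beside 34.7% of all genes. The cause was not tested.

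With the replicate block 0 members and 0 genes passed, and Prss55 had a log2 fold change of 1.99; it changed no call. Against the main scale the all-gene median moved by -0.14 with limma-voom, -0.12 with the block, -0.10 without circSry KO replicate 3 and -0.37 and -0.46 on the 2 TPM scales.

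The sign turned for 6 members, all within their spread. On log2(TPM + 1) and log2(TPM + 0.1) Prss56 had -0.19 and -0.20 and Prss48 -0.27 and -0.29; with length offsets Prss48 had -0.36. Over left-out libraries the log2 fold change ranged from -0.31 to 0.75 for Prss56, -0.32 to 0.60 for Prss48, -0.84 to 0.29 for Prss45, -1.20 to 0.020 for Prss41, -2.31 to 0.046 for Prss50 and -0.73 to 0.16 for Prss38. Without circSry KO replicate 3, 11 members were higher and 5 lower at an unadjusted p below 0.05 (24.4% and 21.8% of all genes, 46.3% in either direction); this count and the CPM overlap without that library were added after seeing the data.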
